A study of Mus musculus with 8 samples.

Results

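The genes described here are 40 genes of mitochondrial protein import and membrane dynamics, taken as a named list and read against the c-Jun peaks of 2 mouse cell lines. A c-Jun peak was assigned to a gene when the peak centre lay no further than 10 kb from one of its mm10 transcription start sites (TSSs). All 40 genes were found among 21000 protein-coding genes with a curated TSS. By this rule 13 of the 40 genes had a peak in EpiSCs and 5 had one in kEpiSCs. A term on the organization of mitochondrial membranes was among those the study found enriched in these same EpiSC peaks, so the list is not independent of the data.

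EpiSCs are wild-type epiblast stem cells, which hold the primed state of pluripotency, and the labels give their strain as CBA/CaJ X C57BL/6J. The paper's methods name another cross for EpiSCs, with OG2 mice, which carry an Oct4-GFP reporter. kEpiSCs are EpiSCs that carry a Klf4 transgene under a CAG promoter beside the Oct4-GFP reporter, and the labels give them no strain. Per the labels both lines were grown without feeder cells in medium with Activin A and bFGF. The paper's methods describe EpiSC culture both on feeders and without them. Each line gave 2 c-Jun ChIP libraries and 2 input libraries. The antibody field of the labels and the paper's methods name c-Jun, whereas the labels name H3K27ac in their protocol text. The AP-1 site bound by c-Jun was in the central 200 bp of 45.9% of EpiSC peaks and in 3.91% of flanks 2000 bp away. One peak list was analysed for each line, with 16166 peaks in EpiSCs and 6032 in kEpiSCs. In the labels each list is named with replicate 1 of the ChIP and might stem from that library only, and no spread between replicates can be given. The counts of peaks are therefore described and not tested, within a line and between the lines. A peak list holds no expression, so the cell type of the lines could not be checked against markers.

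Nearly all mitochondrial proteins are made in the cytosol and enter through the TOM complex of the outer membrane. The TIM23 complex then passes proteins with a presequence into the matrix or inner membrane, while the small TIM proteins and the TIM22 complex deliver carrier proteins to the inner membrane. The shape of the organelle is set by fusion (Mfn1 and Mfn2 outside, Opa1 inside), by fission (Dnm1l with its receptors Fis1 and Mff) and by MICOS, the complex at cristae junctions. c-Jun is a subunit of AP-1, whose dimers bind TGACTCA, which reads TGAGTCA on the opposite strand. With partners of the ATF and CREB family c-Jun can bind TGACGTCA, of which TGACG is a part.

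The sequences below are from peaks at members, taken from the RefSeq assembly GRCm38.p6, the assembly of mm10, and written 5′ to 3′ on the plus strand. The first 3 are shown because they were the EpiSC member peaks with an exact AP-1 site within 100 bp of the peak centre, and the capitals mark that site.
Fis1, chr5:136952381-136952451: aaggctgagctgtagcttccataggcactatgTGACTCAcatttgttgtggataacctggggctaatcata
Tomm20, chr8:126946028-126946093: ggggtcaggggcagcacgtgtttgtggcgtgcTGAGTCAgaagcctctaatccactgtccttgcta
Samm50, chr15:84188186-84188215: ctctcagcctgTGAGTCAgtggggagccca
In the Fis1 peak the site lay 37 bp from the summit, in the Tomm20 peak 34 bp and in the Samm50 peak 14 bp. The next 3 are shown because these peaks had the highest fold enrichment of the member peaks without an AP-1 site. Capitals mark in Opa1 the 10 letters of the palindrome read by nuclear respiratory factor NRF1, and in the other two TGACG or its reverse complement CGTCA.
Opa1, chr16:29579266-29579295: tggctccccGCGCATGCGCatgtcatccgc
Timm13, chr10:80898024-80898094: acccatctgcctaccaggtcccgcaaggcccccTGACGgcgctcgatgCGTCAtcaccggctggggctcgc
Timm22, chr11:76407109-76407138: atctgccgttgtCGTCActctggctggacg
The Timm13 stretch held both TGACG, which began at the summit, and CGTCA, further along the plus strand. The last pair are promoter peaks with TGACG or CGTCA, chosen after the sequences had been seen.
Vdac1, chr11:52360547-52360599: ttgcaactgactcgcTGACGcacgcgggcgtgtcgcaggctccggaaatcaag
Apoo, chrX:94367010-94367039: gggttaagctggCGTCAcagcatcatctcg
These matches lay 10 bp from the Vdac1 summit and 21 bp from the Apoo summit, the latter outside the central 200 bp of its peak. A match is a description of the letters and does not show that the protein bound there.

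In EpiSCs 32.5% of the members had a peak, against 21.8% of all protein-coding genes. Gene length made little difference to that reference, since genes in the members' own 10 groups of gene length had a peak in 22.3% of cases. The members lay further above the other genes at promoters, from 1000 bp upstream to 100 bp downstream of a TSS. A promoter peak was present at 10 of 40 members (25%), against 7.28% of all genes and 7.47% of genes of the members' lengths. A peak within 10 kb but none at the promoter was found only at Tomm22, Timm13 and Samm50, a lower share than the 14.5% of all genes. In kEpiSCs, whose list is shorter, 5 of 40 members had a peak (12.5%), against 8.27% of all genes and 8.49% at matched length. Promoter peaks numbered 3 of 40 there (7.5%), against 2.01% of all genes and 2.07% at matched length. The 2 members with a peak but none at the promoter, Timm13 and Samm50, were a lower share than the 6.25% of all genes. All 5 members with a kEpiSC peak also had one in EpiSCs, and 6.58% of all genes had a peak in both lines.

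Promoters of the members were richer in CpG than those of other genes, with a median of 22 CpGs from 250 bp before to 50 bp after the TSS against 15, and 85% of the members were above the median of all genes. Among genes in the members' groups of promoter CpG, 10.7% had an EpiSC promoter peak and 28% had one within 10 kb. Both shares were higher than those by length and so nearer to the members' 25% and 32.5%, which remained above them. In kEpiSCs the CpG reference was 2.86% at promoters and 10.3% within 10 kb. Grouping by the number of neighbouring genes within 10 kb gave 7.65% and 22.3% in EpiSCs. These 2 references were chosen after the data had been seen, and the part of CpG content in the members' counts was not tested.

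**Figure D1:**
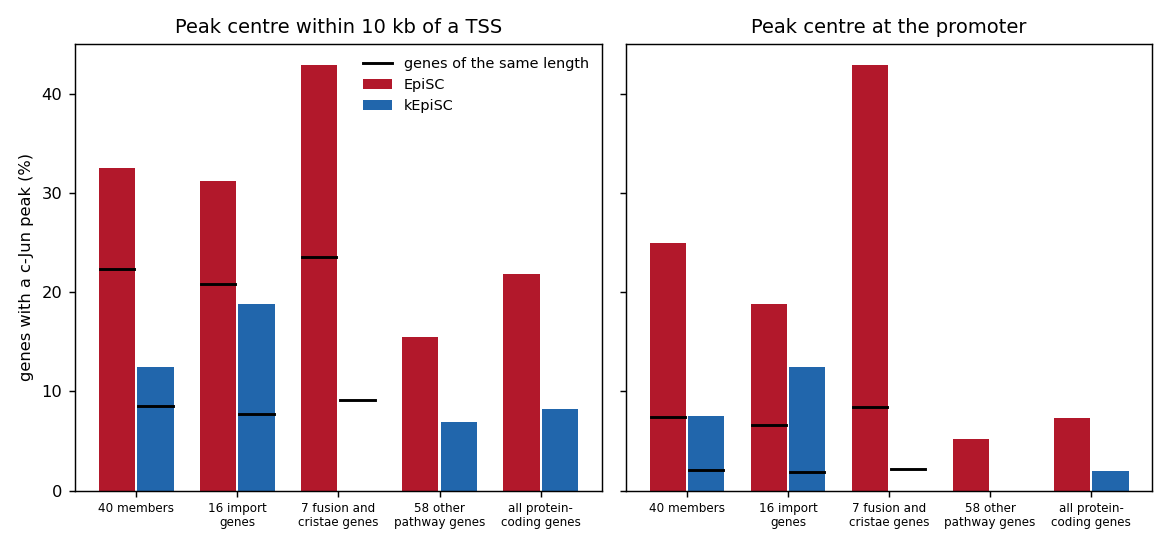
Percentage of genes with a peak up to 10 kb from a TSS (left) and at the promoter (right) in EpiSCs (red) and kEpiSCs (blue), for the 40 members, the import genes, the fusion and cristae genes, 58 other genes of the pathway and all protein-coding genes. Black lines give the share among genes of the same length groups. The members' EpiSC bar is 25% at promoters against a line at 7.47%, and the fusion and cristae genes have no kEpiSC bar because none had a peak.

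The groups are set beside the reference by length and then the one by promoter CpG. Of the 16 import genes, 5 had an EpiSC peak (31.2%, against 20.8% by length and 27.6% by CpG). A promoter peak was present at 3 of the 16 (18.8%, against 6.6% and 10.3%). Of the 7 fusion and cristae genes 3 had a peak (42.9%, against 23.6% and 26.2%). All 3, Opa1, Chchd6 and Apoo, had one at the promoter (against 8.46% and 9.18%). Within 10 kb the counts were thus 5 of 16 and 3 of 7, and at promoters 3 of 16 and 3 of 7. Both groups hold too few genes for their percentages to be told apart. In kEpiSCs the import genes kept 3 of their genes (18.8%, against 7.74% by length and 10.1% by CpG), Tomm20, Timm13 and Timm22. None of the 7 fusion and cristae genes had a kEpiSC peak (against 9.18% and 9.74%). At promoters these counts were 2 import genes (12.5%, against 1.9% and 2.74%) and no fusion and cristae gene (against 2.18% and 2.46%). The difference between the groups in kEpiSCs was not tested, since genes of a list are not replicates.

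Within the TOM complex 3 of 5 genes had an EpiSC peak, against 21.8% of all protein-coding genes, and 5 genes are too few to read a share from. Tomm20, the receptor that recognises presequences, had a promoter peak at chr8:126945884-126946093, centred 68 bp upstream of the TSS. The fold enrichment is the reads at the summit over the local background, with 1 added to both, and was 4.77 at Tomm20. Its summit held 25 reads (95% Poisson interval 16.2 to 36.9), the most of any member in EpiSCs, over a background of 4.45 reads. The low fold thus went with a high background. The kEpiSC peak at Tomm20 overlapped it, with 28 reads (18.6 to 40.5) over 9.03 and a fold of 2.84, and 99.9% of the kEpiSC list had a higher fold. The intervals cover counting error only. Tomm40, the pore of the complex, had an EpiSC promoter peak 510 bp upstream at chr7:19715878-19716000, with 12 reads and a fold of 6.77, and its nearest kEpiSC peak lay 196 kb away. Tomm22, the central receptor, was called only through a peak 9910 bp downstream of its TSS, with 6 reads (2.20 to 13.1) and a fold of 4.63. This peak, at chr15:79680721-79680835, was in an intron of the neighbouring gene Josd1 and closer to the TSS of Josd1 (7094 bp). The nearest EpiSC peaks to the small subunits Tomm5 and Tomm7 were 113 and 177 kb away.

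Of the small TIM genes, which encode chaperones of the intermembrane space, Timm13 alone had a peak. It lay 2881 bp downstream of the Timm13 TSS, past the end of the gene, in a coding exon of Tmprss9 at chr10:80897950-80898225. It had 16 reads and a fold of 10.5 in EpiSCs and 21 reads and a fold of 12.1 in kEpiSCs, which were the second highest and the highest folds of the member peaks in those lines. The TSS of Lmnb2, which encodes lamin B2, was also within 10 kb of this peak. Timm8b, Timm9, Timm10 and Timm8a1 had their nearest EpiSC peaks at 88.2, 99.7, 62.5 and 234 kb.

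Among the TIM22 and TIM23 genes Timm22, which encodes the carrier translocase, had a promoter peak in both lines. Its EpiSC peak at chr11:76406763-76407185 was centred 49 bp downstream of a TSS with 19 reads and a fold of 7.19, and its kEpiSC peak had 24 reads and a fold of 6.53. The TSS of Nxn lay within 10 kb as well. The CGTCA shown above was 31 bp from the EpiSC summit and outside the central 200 bp, because this peak is 423 bp wide. Timm17a, Timm17b, Timm23, Timm44 and Timm50, subunits of TIM23 and its import motor, had no peak within 10 kb, with EpiSC distances from 34.3 kb at Timm50 to 123 kb at Timm44.

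Opa1, the fusion GTPase of the inner membrane, had the highest fold of the EpiSC member peaks. The peak at chr16:29579238-29579363 was centred 33 bp upstream of the TSS, with 19 reads (11.4 to 29.7) over a background of 0.89 and a fold of 10.6. Only 8.70% of the EpiSC list had a better q-value. No kEpiSC peak lay within 10 kb of Opa1. The nearest was in an intron of Opa1 itself, 65.8 kb from the TSS, with an AP-1 site and a fold of 5.54. The outer membrane fusion genes Mfn1 and Mfn2 had their nearest EpiSC peaks at 32.5 and 24.6 kb, that of Mfn2 in a coding exon of the gene.

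Fis1, which encodes an outer membrane protein of fission, had a promoter peak in both lines, at chr5:136952331-136952489 in EpiSCs. It was 865 bp upstream of the first curated TSS and 9667 bp from the second. With 45% GC and 2 CpGs in its central 200 bp it was the least CpG-rich of the members' EpiSC promoter peaks. The fold was 8.60 with 12 reads in EpiSCs and 5.32 with 9 reads in kEpiSCs. Dnm1l, the fission GTPase, and Mff, its receptor, had their nearest EpiSC peaks at 68.8 and 69.6 kb.

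Of the MICOS genes, Chchd6 and Apoo had promoter peaks in EpiSCs and none in kEpiSCs. The Chchd6 promoter peak at chr6:89595582-89595698 was 12 bp downstream of the TSS, with 13 reads and a fold of 5.04. A second Chchd6 peak lay 4088 bp upstream, with 8 reads and a fold of 4.76. Apoo, whose product is also called MIC26, had 7 reads (2.81 to 14.4) and a fold of 4.40 at chrX:94366768-94367039, and this peak was closer to the TSS of Fam90a1b (127 bp) than to that of Apoo (206 bp). Apoo was the only member on X with a peak. Timm8a1, Timm17b and Slc25a5 on X had none, and of 902 protein-coding genes on X 4.32% had an EpiSC peak and 0.776% a kEpiSC peak. Immt, the core subunit of MICOS, and Chchd3 had their nearest EpiSC peaks at 30.2 and 31.8 kb, both with an AP-1 site.

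Samm50 and Mtx1, of the machinery that inserts barrel proteins into the outer membrane, had peaks, whereas Mtx2 had its nearest EpiSC peak at 131 kb. Samm50 had none at its promoter. Its EpiSC peaks lay 8358 and 4105 bp upstream, in an intron and in the UTR of Pnpla3, with 7 reads each and folds of 5.47 and 4.96. The kEpiSC peak at Samm50 had 12 reads and a fold of 7.04 at chr15:84187966-84188088. It overlapped the nearer EpiSC peak at chr15:84188040-84188230 only at its edge, and the AP-1 site shown above was not in its central 200 bp. The Mtx1 peak, 493 bp upstream of the TSS, had 12 reads and a fold of 5.34, with the TSS of Thbs3 within 10 kb.

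The voltage-dependent anion channels are the main pores of the outer membrane. Vdac1 had an EpiSC promoter peak 205 bp upstream of its TSS, with 12 reads over 1.33 and a fold of 5.58. Vdac3 had one 102 bp upstream, with 14 reads over 2.67 and a fold of 4.09, and 92.9% of the EpiSC list had a higher fold. Vdac2 and the ADP/ATP carrier genes Slc25a4 and Slc25a5 had their nearest EpiSC peaks at 23.1, 14.8 and 108 kb. None of these 5 genes had a kEpiSC peak within 10 kb. Oma1 and Yme1l1, the proteases that cleave Opa1, had their nearest EpiSC peaks at 187 and 88.3 kb, and the prohibitin scaffold genes Phb and Phb2 at 90.8 and 23.2 kb. For Letm1 and for Bcs1l, which encodes an assembly factor of respiratory complex III, these distances were 39.0 and 22.5 kb. None of these 6 genes had a kEpiSC peak within 10 kb either.

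**Figure D2:**
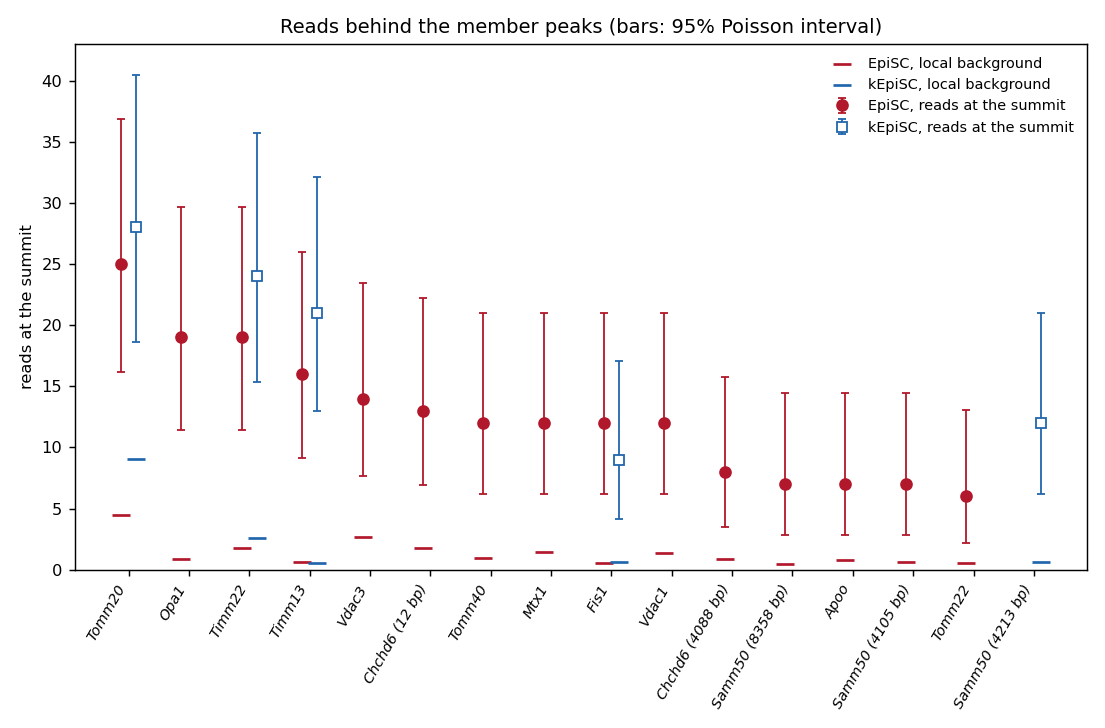
Reads at the summit of each member peak (y axis) with 95% Poisson intervals, in EpiSCs (red circles) and kEpiSCs (blue squares), and the local background in reads (short lines). Peaks of 1 gene are told apart by their distance from the TSS, and EpiSC peaks are ordered by reads. The intervals of the EpiSC peaks at Tomm22, Apoo and Samm50 reach down to 2.81 reads or less, while the Tomm20 summit stands at 25 reads over the highest EpiSC background.

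Over all 40 members the nearest EpiSC peak was at a median of 32.1 kb, against 48.3 kb for all protein-coding genes, and the nearest kEpiSC peak at 91.6 kb, against 134 kb. Of the 27 members with no EpiSC peak within 10 kb, the nearest peak lay 14.8 to 234 kb away, within 50 kb for 13 of them and over 100 kb for 7. Of the 35 members with no kEpiSC peak, 11 had one within 50 kb. Timm8a1 and Slc25a5 on X had their nearest kEpiSC peaks 10900 and 16000 kb away. Within 5 kb 12 members had an EpiSC peak (30%, against 15.3% of all genes) and within 50 kb 26 did (65%, against 50.7%). The distance of the members from the other genes was thus wider in proportion close to the TSS.

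**Figure D3:**
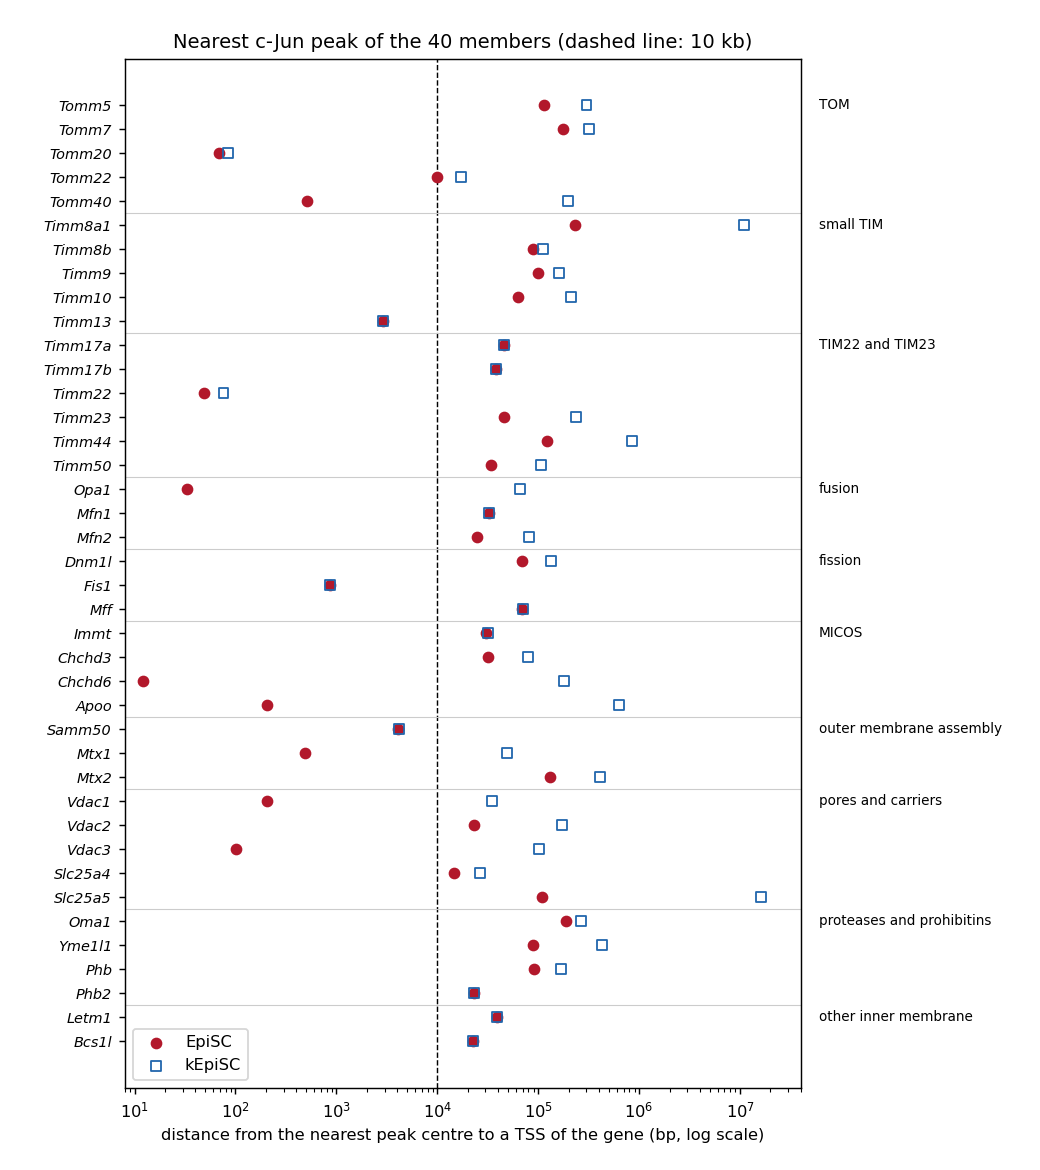
Distance from the nearest peak centre to a TSS of each member (x axis, bp, log scale) in EpiSCs (filled red circles) and kEpiSCs (open blue squares), with members grouped by role. The dashed line marks 10 kb. Of the EpiSC points, 13 lie left of the line, while the proteases, prohibitins and other inner membrane genes lie right of it in both lines.

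A peak could also lie within a gene but far from its TSS, a measure chosen after the data had been seen. Between the start and end of the gene, 6 of 40 members held an EpiSC peak (against 21.2% of all genes and 18.6% at matched length) and 5 a kEpiSC peak (against 9.78% and 8.04%). The members did not stand above other genes by this measure in EpiSCs. The fusion and cristae genes, which are long, accounted for 4 of the 6 in EpiSCs, with 57.1% against 37.5% at matched length. In kEpiSCs 3 of these 7 genes held a peak, Opa1, Chchd3 and Chchd6 (42.9%, against 19.5%), and 1 of the 16 import genes, Timm22 (6.25%, against 3.24%). By this measure the order of the 2 groups in kEpiSCs was thus the opposite of that within 10 kb of a TSS. The shares at matched length, 19.5% and 3.24%, had the same order as the groups. Chchd3, which spans 268067 bp, held 4 EpiSC peaks in its introns, 3 of them with an AP-1 site, and 1 of the 4 overlapped a kEpiSC peak. Letm1, which encodes a cation exchanger of the inner membrane, held an AP-1 site in a peak in its coding exon in both lines, with a fold of 11.2 in EpiSCs and 7.86 in kEpiSCs.

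Promoter and distal member peaks were set side by side. The 13 members had 15 EpiSC peaks, of which 10 (66.7%) were at promoters, against 29% of all EpiSC peaks within 10 kb of a protein-coding TSS. The promoter peaks had 7 to 25 reads at the summit and a median fold of 5.46, and the 5 distal peaks 6 to 16 reads and a median fold of 4.96. All EpiSC promoter peaks near protein-coding TSSs had a median fold of 5.29, and the distal ones within 10 kb one of 6.16. The median of the whole list was also 6.16, and Opa1, Timm13, Fis1, Timm22 and Tomm40 were the 5 members with a peak above it. The local background was 1.38 reads at the median of the promoter peaks and 0.614 at that of the distal peaks. The promoter peaks had a median GC content of 64%, as against 49% for the distal ones. All EpiSC promoter peaks near protein-coding TSSs had a median of 63%, so in GC the members' promoter peaks were close to the others.

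**Figure D4:**
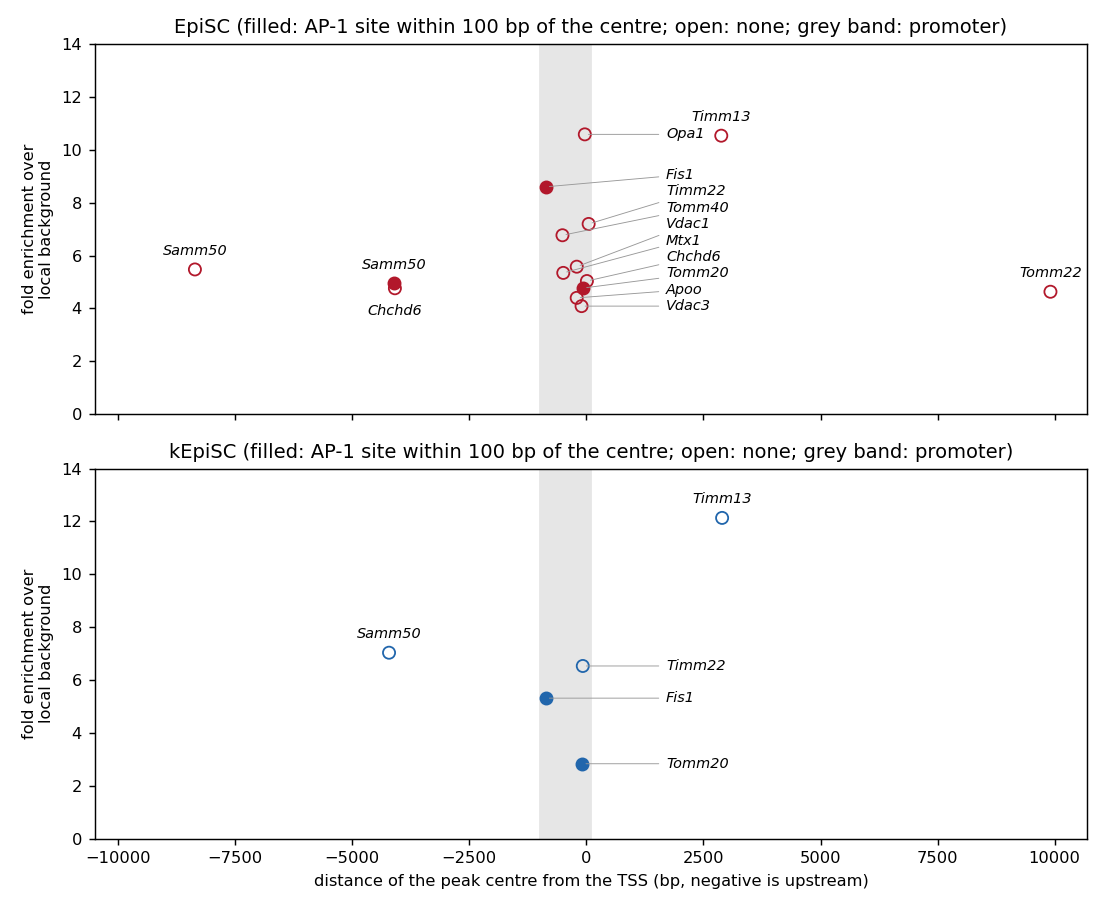
Fold enrichment of each member peak (y axis) against the distance of its centre from the TSS (x axis, bp, negative upstream) in EpiSCs (top) and kEpiSCs (bottom). Filled points hold an AP-1 site in the central 200 bp and the grey band is the promoter. Opa1 and Timm13 stand highest in EpiSCs with folds of 10.6 and 10.5, neither with an AP-1 site.

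An exact AP-1 site was present in 3 of 15 EpiSC member peaks (20%), against 45.9% of the whole list. The members' share was 20% at promoter and at distal peaks alike. Of all EpiSC promoter peaks near protein-coding TSSs 15.2% held the site, and of the members' promoter peaks 2 of 10 did (Tomm20 and Fis1). Of distal peaks within 10 kb 44.1% held it, and of the members' 1 of 5 did. In kEpiSCs 2 of 5 member peaks held it, again Tomm20 and Fis1, against 58.5% of the list. TGACG or CGTCA was present in 6 of 15 EpiSC member peaks (Tomm20, Tomm40, Chchd6, Vdac1, Timm13 and Samm50), against 17.1% of all peaks and 34.3% of promoter peaks, and the full TGACGTCA in none of them, against 2.13% and 7.11%. The NRF1 palindrome was present in the Opa1 peak only, and in 1.64% of EpiSC promoter peaks. The ETS-type letters CCGGAAG, or CTTCCGG on the opposite strand, were in the Tomm40 peak only, against 13.9% of promoter peaks.

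The same letters were counted in the promoters themselves, from 250 bp before to 50 bp after a start in the RefSeq table of GRCm38.p6, which held 37 members (not Tomm7, Vdac2 and Vdac3) among 16853 protein-coding genes. The AP-1 site was in 2 of 37 members, Tomm20 and Samm50, against 5.5% of genes. CCGGAAG or CTTCCGG was in 16 of 37 members (43.2%), against 13.3% of genes. By c-Jun peak, it was in 3 of the 9 members with an EpiSC promoter peak (Fis1, Mtx1 and Vdac1) and in 13 of the 28 without. TGACG or CGTCA was in 18 of 37 members (48.6%), against 26.9% of genes, with 5 of the 9 members with a promoter peak and 13 of the 28 without. The part of the members' higher CpG content in these shares was not tested.

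Of the 15 EpiSC member peaks 5 overlapped a kEpiSC peak by at least 1 bp (33.3%), against 28.3% of all EpiSC peaks. They were the peaks of Tomm20, Timm13, Timm22 and Fis1 and the nearer Samm50 peak. Among promoter peaks 3 of 10 did, against 14.8% of all promoter peaks near protein-coding TSSs, and among distal peaks 2 of 5, against 26.5%. Over the whole EpiSC list overlap went with fold, at 12.8% in the lowest of 10 groups by fold and 78.2% in the highest. The Tomm20 peak, the nearer Samm50 peak and the Chchd6 promoter peak were in the third group from below, where 12.2% of peaks overlapped. Of these member peaks, that of Chchd6 had no overlap. Opa1 had no overlap and was at the lower edge of the highest group, with a fold of 10.6 where the group ran from 10.5 to 30.8. In that group 73.1% of the promoter peaks had an overlap, and 63% of those without an AP-1 site. In the group just below, these shares were 36.9% and 35%.

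**Figure D5:**
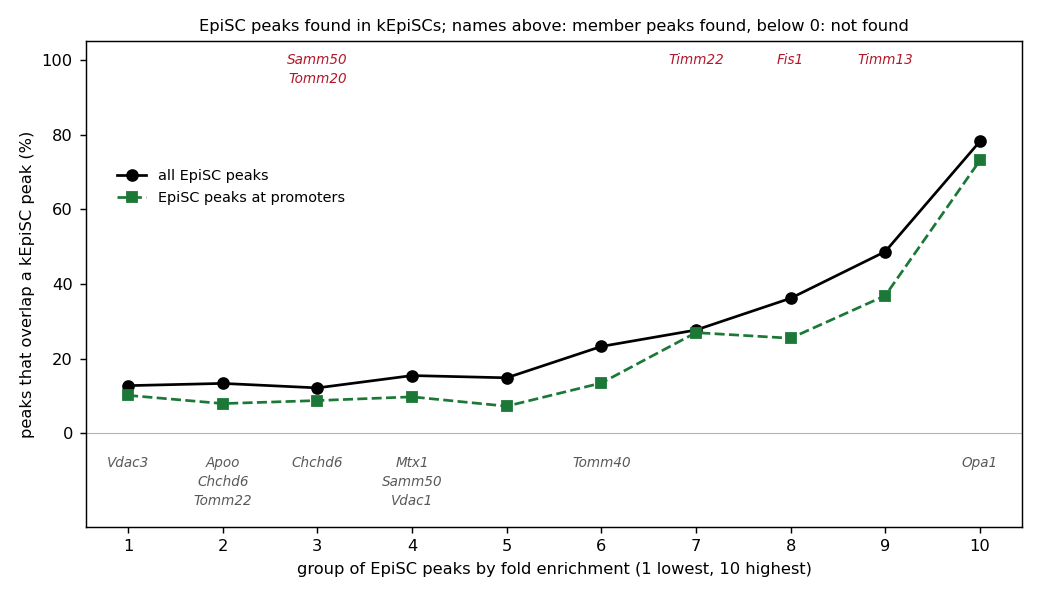
Percentage of EpiSC peaks that overlap a kEpiSC peak (y axis) in 10 groups by EpiSC fold enrichment (x axis, 1 lowest), for all peaks (black) and promoter peaks (green). Names at the top are member peaks with an overlap and names under 0 are those without, at the group of their fold. The curve of all peaks goes from 12.8% to 78.2%, and Opa1 stands under the highest group.

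Other genes of the same pathways were taken from a list of 58 that are not members, with all 58 found. Of these 9 had an EpiSC peak within 10 kb (15.5%, against 21.8% of all genes) and 3 a promoter peak (5.17%, against 7.28%), so the members' higher share was not seen in them. In kEpiSCs 4 had a peak (6.9%) and none at the promoter. The highest-scoring were at Trak1, an adaptor that links mitochondria to motors, with a fold of 17.8 in EpiSCs and 13.8 in kEpiSCs, both in an intron. Letmd1 had folds of 11.7 and 7.37. Micos10, a core subunit of MICOS, had a fold of 8.89 in EpiSCs at 9185 bp from its TSS, and another, lower-scoring EpiSC peak at its promoter. Chchd4, the oxidoreductase of the intermembrane space, had an EpiSC fold of 8.21 with an AP-1 site. Mtfr1l and Letm2 had EpiSC folds of 6.20 and 5.73, and none of these 4 had a kEpiSC peak. Timm29 (7.09) and Miga2 (6.15) had one in kEpiSCs alone.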

How the data were processed

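c-Jun ChIP-seq of EpiSCs and kEpiSCs was used, with 2 ChIP and 2 input libraries per line, 8 in all. Per the methods, the authors aligned reads to mm10 (Bowtie2, unique alignments only) before peak calling by MACS2. SAMtools, bedtools and bcl2fastq are listed in the submitters' processing notes with versions not given in the sources used here. The read length differs between the paper (75 bp) and the labels (50 bp). Reads per library were not analysed here.

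The deposited lists give a score made from the q-value, a fold over the local background, the p-value and q-value as −log10, and the summit, all by the authors. In the fold, 1 is added to numerator and denominator. The fold and p-value were solved together for the reads at the summit and the background, within 0.01 of the deposited −log10 p for 100% of EpiSC and 99.6% of kEpiSC peaks. The median was 10 reads in EpiSCs and 14 in kEpiSCs, where 1 read counted as 0.775 in the pileup. Intervals are exact Poisson intervals.

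Curated transcripts of RefSeq (GRCm38.p6) gave the TSSs. Motifs were sought in the central 200 bp, either strand. The share at matched length is the share of all genes in each of 10 length groups, averaged over the members. Every member is named, with every peak within 10 kb and the neighbouring genes that share it, or with its nearest peak, and up to 6 other pathway genes per line by score. The members and lists were chosen with earlier results of these data known. The calculations were checked on simulated data. The software was pandas 2.3.3, scipy 1.17.1, numpy 2.4.6, matplotlib 3.10.9 and pysam 0.24.0 under Python 3.11.15.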

Additional observations from a re-analysis of the deposited data

How the results depend on the processing

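Of 52 alternatives, 37 left the count within 1.5 times of the value in the report. At 50 kb the counts with a peak rose, to 26 members, 9 import genes and 7 fusion and cristae genes in EpiSCs and to 16, 6 and 2 in kEpiSCs. Of all protein-coding genes, 50.7% had an EpiSC peak and 27% a kEpiSC peak within that distance. In the higher-scoring part of the EpiSC list the counts were 6 members, with 4 of the 16 import genes and 1 of the 7 fusion and cristae genes. In that of the kEpiSC list they were 2 members, with 2 import genes and 0 fusion and cristae genes. The share over all genes for these parts of the lists is not given here. Giving each peak to the gene of its nearest TSS, with no limit on distance, gave 16 members in EpiSCs, but Apoo and Tomm22 were lost. In kEpiSCs this rule gave 8 members and 2 fusion and cristae genes. The share over all genes under this rule is not given here either. With fission genes, proteases and prohibitins added, 1 gene of the fusion and cristae group had a kEpiSC peak, Fis1. With 1 mismatch allowed in the AP-1 site, 8 EpiSC member peaks held it (53.3%, against 78.3% of the EpiSC list). In kEpiSCs 4 member peaks did (80%, against 86.4% of the kEpiSC list). With 50% of the EpiSC peak to be covered, 3 peaks overlapped between the lines.

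No paired analysis was possible because the lists hold 1 value per peak for a line and none by replicate. Leaving out a replicate was not possible either. The member peaks of Tomm22, Apoo and Samm50 rest on only 6 or 7 reads in EpiSCs, and the part of sequencing depth in this was not tested. An absent call in kEpiSCs does not show absent binding.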
